A study of Mus musculus with 31 samples.

Results

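Cyclic AMP (cAMP) signalling was followed through 10 genes: 4 adenylyl cyclases (Adcy3, Adcy5, Adcy6 and Adcy9), 4 phosphodiesterases (Pde1a, Pde3a, Pde4b and Pde4d), the protein kinase A (PKA) regulatory subunit gene Prkar1a and the transcription factor gene Creb1. They were taken by symbol from 23509 genes counted in kidney RNA, and all 10 were among the 15185 genes with enough reads to be tested. Adenylyl cyclases make cAMP from ATP and phosphodiesterases hydrolyse it. Rising cAMP releases the catalytic subunits of PKA from its regulatory subunits, and PKA phosphorylates CREB, which binds cAMP response elements in promoters. In the collecting duct, vasopressin acts through this pathway, and cAMP is known as a stimulus of proliferation and fluid secretion in cyst-lining cells.

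Kidneys of 31 mice were compared at 30 weeks of age. The 26 diseased mice were of strain Pcy/CD1, which carries the recessive pcy allele in the CD1 background and forms cysts slowly. Of these, 14 received RGLS4326 at 25 mg kg−1 subcutaneously every month (Q4W) from 5 weeks of age for 25 weeks, and 12 received PBS over the same weeks. RGLS4326 is a short, chemically modified oligonucleotide complementary to the seed of the microRNA miR-17. PBS was given weekly by one label and by the study's description, though the protocol text in the labels has monthly, so by the former the PBS mice had more injections than the treated mice. The 5 WT mice were untreated male CD1 animals without the pcy allele and without injections. The study's description gives the Pcy/CD1 mice as male too. Disease and injection cannot be told apart in comparisons with WT, nor agent and number of injections between the Pcy/CD1 groups if PBS was weekly. Whole kidneys were sequenced, and in such bulk samples fewer cells of a type and less RNA per cell cannot be told apart.

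Between 14892524 and 27459962 reads fell on genes per mouse. RGLS4326-treated mouse 9 stood apart from its group, with a root mean square log2 distance from the WT mean of 0.281 against 0.457 to 0.808 in the other 13 treated mice. WT mice 3 and 4 were the most alike pair, with a chi-square of 2.69 per gene against 16.05 to 22.6 in the other WT pairs, so they differed by more than counting noise, and the labels give them as separate samples. That does not show that they came from separate animals. With their reads summed as 1 sample, 3, 0 and 2 of the 10 genes passed both thresholds described below for PBS against WT, RGLS4326 against PBS and RGLS4326 against WT, as with 5 WT mice. Of all genes, 42.1, 1.87 and 30.9% did so in that fit. Tubule markers were present in every mouse, but their sums differed between groups, with proximal tubule medians of 15288 CPM in WT, 6243 CPM with PBS and 7790 CPM with RGLS4326. The principal cell sum was 411, 1724 and 1166 CPM and the fibroblast sum 125, 731 and 624.6 CPM in the same order. The injured tubule sum, with the largest relative shift of these, was 35.0, 591 and 493.4 CPM and the macrophage sum 153, 365 and 349 CPM. CPM are reads of a gene relative to all reads on genes, after TMM scaling, a correction for RNA composition. The 20 most abundant genes held 17.5 to 18.5% of reads in WT and 10.9 to 15.9% with PBS, and scaling by total reads instead moved the median log2 fold change of all genes to 0.38 for PBS against WT and to −0.12 for RGLS4326 against PBS. Its effect is given below wherever it turned the direction of one of the 10 genes.

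Levels per length differed by more than 2 orders of magnitude between the 10 genes. As CPM divided by exon length in kilobases (RPKM), Prkar1a was highest in WT at 57.1 ± 1.34 (SD, n = 5), followed by Adcy6 at 27.1 ± 1.38 and Pde1a at 10.97 ± 0.517. Adcy9 read 3.82 ± 0.251, Pde4d 3.05 ± 0.860 and Creb1 2.34 ± 0.162 RPKM. These last 3 genes were not separated pair by pair in this order, since the range of Pde4d over the WT mice overlapped those of Adcy9 and of Creb1. Pde4b followed at 1.14 ± 0.104, Adcy5 at 0.651 ± 0.0764, Adcy3 at 0.471 ± 0.122 and Pde3a at 0.226 ± 0.0469 RPKM. The ranges of Adcy5 and Adcy3 overlapped, and that of Pde3a lay below all the other genes of the 10. With PBS, Adcy9 at 2.12 ± 0.490 RPKM (SD, n = 12) stood below Pde4d at 2.36 ± 0.494, and Adcy3 at 0.878 ± 0.208 stood above Adcy5 at 0.575 ± 0.111, with overlapping ranges in both pairs.

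**Figure D1:**
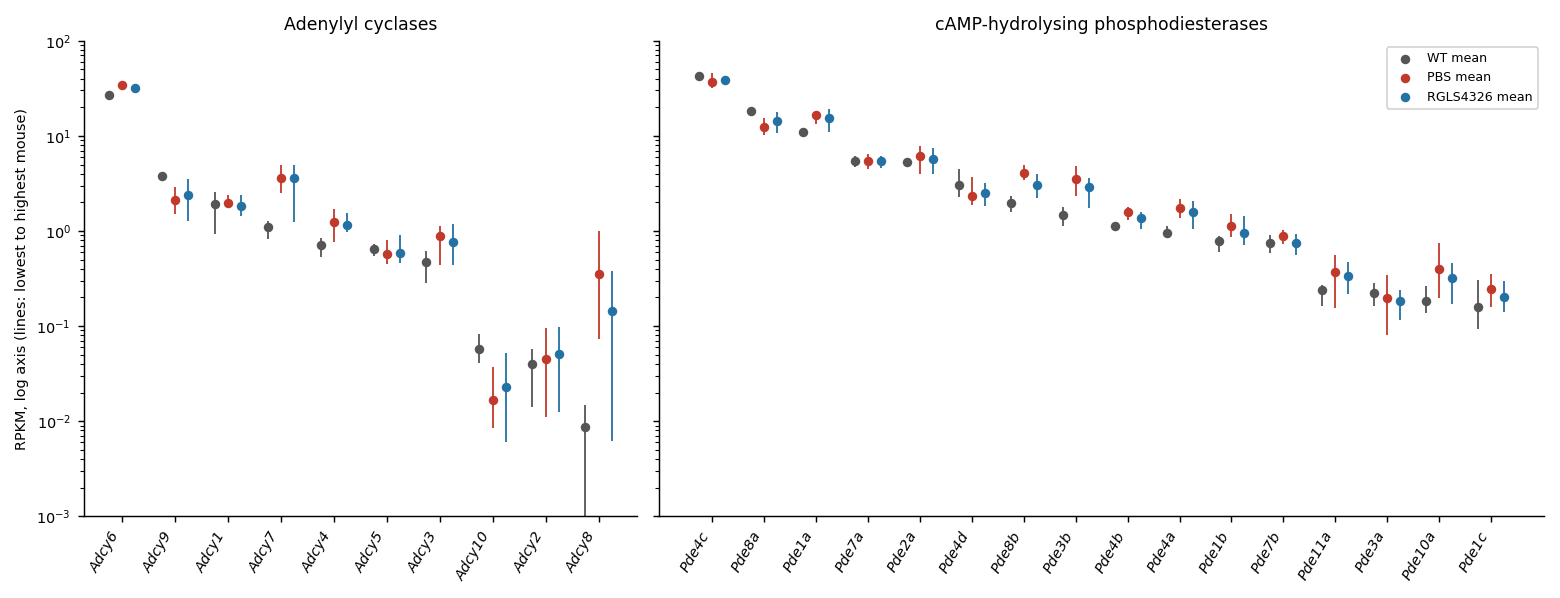
Levels per length (RPKM, log axis) of 10 adenylyl cyclases and 16 cAMP-hydrolysing phosphodiesterases, ordered by WT level; points are the means of WT (n = 5), PBS (n = 12) and RGLS4326 (n = 14) mice and lines run from the lowest to the highest mouse, a line that reaches the lower edge holding a mouse at 0. Adcy6 stood above every other cyclase in all 3 groups, with a WT mean of 27.1 RPKM, and Pde1a followed Pde4c and Pde8a among the phosphodiesterases in WT at 10.97 RPKM.

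Cystic kidneys differed from WT in 8 of the 10 genes at an adjusted p under 0.05 (quasi-likelihood test of edgeR, adjusted over all genes tested by Benjamini-Hochberg), against 74.3% of all genes tested. Adcy3, Adcy6, Pde1a, Pde4b and Prkar1a rose with PBS (37.7% of all genes rose), and Adcy9, Pde4d and Creb1 fell (36.6%). A second threshold, an absolute log2 fold change over 0.5, was passed as well by 3 of them, Adcy3 and Pde1a upward (24.6% of all genes) and Adcy9 downward (17.8%), where 42.4% of all genes passed both. The PBS and WT mice did not overlap for Adcy6, Adcy9, Pde1a and Pde4b, 4 of 10 genes against 42.2% of all genes tested (20.3% with PBS above WT and 21.9% with PBS below). With 10 genes, 1 gene more or less moves such a share by 10 percentage points. Their median log2 fold change was −0.04 beside 0.01 for all genes. Under total count scaling 6 of the 10 passed the adjusted p, 5 upward and 1 downward, beside 78.3% of all genes.

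Adcy6 and Pde4b, 2 of the 10 genes, fell with RGLS4326 against PBS (adjusted p under 0.05), against 15.8% of all genes tested (9.15% higher and 6.66% lower), and 0 passed both thresholds, against 2.15% (0.935% higher and 1.22% lower). Their median log2 fold change was −0.06 beside −0.0043 for all genes. Under total count scaling 4 of the 10 fell, Pde1a and Prkar1a in addition, and 0 rose, beside 30.8% of all genes past the adjusted p, most of them lower (4132 against 551 higher). The background for treatment itself moved with single mice, from 2402 genes past the adjusted p to 618 without PBS mouse 10 and to 3999 without treated mouse 2. Past both thresholds, 142 genes higher and 185 lower became 42 and 36 without the former mouse and 209 and 365 without the latter. Without one mouse, 1 to 3 of the 10 genes passed the adjusted p. By unadjusted p from the same edgeR test, 3 genes were under 0.05 (Adcy6, Pde4b and Creb1), beside 5595 of all 15185 genes tested. DESeq2 also put 0 past both thresholds (2.25% of all genes) and these 3 past the adjusted p (20.6% of all genes). For each of the 10 genes the treated and PBS ranges overlapped, as they did for all genes tested (0% without overlap). Without treated mouse 9, 1 gene, Adcy6, passed the adjusted p, beside 8.14% of all genes. Against WT, treated mice differed in 5 of the 10 genes, 4 higher and 1 lower, beside 64.9% of all genes (32.5% higher and 32.4% lower). Of these, Adcy3 and Adcy9 passed both thresholds (31.5% of all genes, 20.3% higher and 11.3% lower), and Adcy9 alone did not overlap (14.8%, with 5.04% above and 9.75% below WT). The median was −0.02 beside 0.0037. Under total count scaling 6 of the 10 were higher than WT and 1 lower past the adjusted p, beside 8448 and 2079 of all genes. The comparisons share mice, so the folds are given side by side and not as separate evidence.

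**Figure D2:**
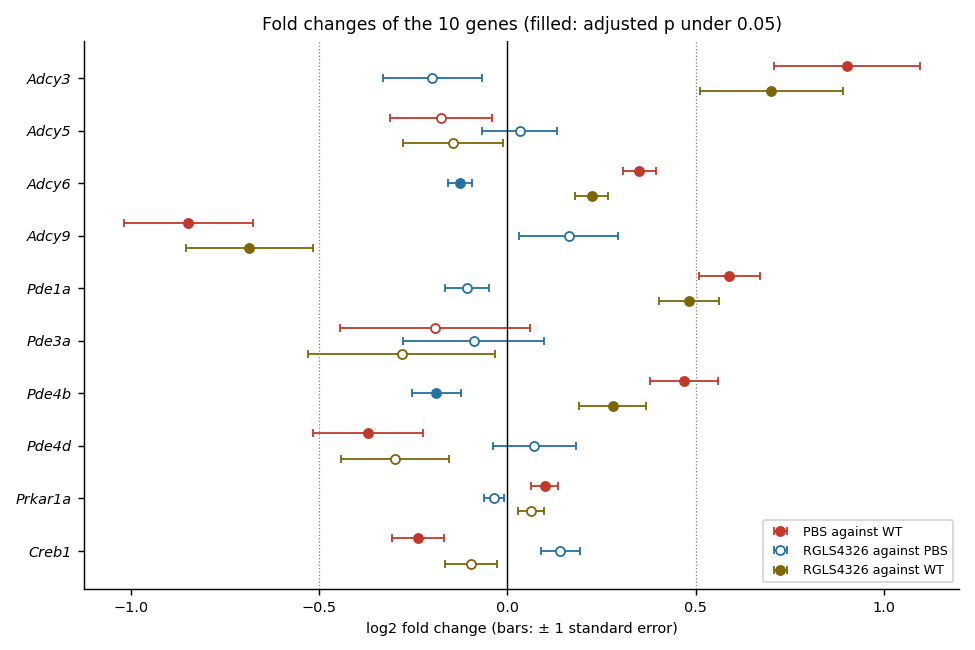
Log2 fold changes (horizontal axis) of the 10 genes in 3 comparisons from 1 model of 31 mice; bars are ± 1 standard error, filled points have an adjusted p under 0.05 and dotted lines mark 0.5 in each direction. Filled points for RGLS4326 against PBS are Adcy6 at −0.13 and Pde4b at −0.19.

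Adcy6 encodes a calcium-inhibited cyclase that serves the vasopressin V2 receptor in the collecting duct, and lies at chr15:98589973-98610076 on the minus strand (GRCm38, GENCODE vM21). The WT mice read 186, 199, 175, 178 and 180 CPM. The PBS mice ranged from 218 to 257 CPM with a median of 232, and the treated mice from 197 to 233 CPM with a median of 214. Every PBS mouse was above every WT mouse, whereas 13 of 14 treated mice were below the PBS median and 12 of 14 were still above the WT range. The log2 fold change was 0.35 (standard error 0.045, adjusted p = 8.47e-08) for PBS against WT, a 1.28-fold rise. It was −0.13 (standard error 0.033, adjusted p = 0.0174) for RGLS4326 against PBS and 0.22 (adjusted p = 6.97e-05) for RGLS4326 against WT. The index numbers in the library names restart at 2 points within each group and so give 3 index series, each holding mice of all groups. What a series stands for (a run or a pool) is not given in the sources used here. In the 3 series Adcy6 was 0.25, 0.38 and 0.47 for PBS against WT, and the treatment value was −0.08, −0.12 and −0.18. Within a single series 0 genes of the whole table passed the adjusted p of edgeR for treatment (280, 2981 and 3045 genes had an unadjusted p under 0.05, and DESeq2 was not run within series), so the lack of a call there is not particular to any gene. For PBS against WT 51.9, 45.5 and 38.1% of all genes passed within the series. An antisense transcript, Gm29331, overlaps 605 bp of Adcy6 exons on the other strand, and the strand setting used in counting is not given in the sources used here.

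Adcy5, the close relative of Adcy6 (chr16:35154877-35305738, plus strand), passed the adjusted p in no comparison. It read 5.19, 3.92, 5.03, 4.97 and 4.28 CPM in WT, 3.20 to 5.78 CPM (median 3.91) with PBS and 3.28 to 6.59 CPM (median 4.07) with RGLS4326. All 3 groups overlapped. The log2 fold change was −0.18 (standard error 0.14, adjusted p = 0.234) for PBS against WT and 0.19 under total count scaling, and it was 0.03 (standard error 0.10, adjusted p = 0.828) for RGLS4326 against PBS. The highest value of all was that of treated mouse 9, and without it the treatment value was −0.03.

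Adcy3, the cyclase of olfactory and other primary cilia, rose 1.87-fold with PBS (log2 fold change 0.90, standard error 0.19, adjusted p = 0.000133). Its position is chr12:4133103-4213525 on the plus strand. The WT mice read 2.77, 1.78, 3.08, 3.88 and 3.19 CPM, the PBS mice 2.74 to 7.06 CPM (median 5.61) and the treated mice 2.77 to 7.41 CPM (median 4.75). In 11 of 12 PBS mice and 12 of 14 treated mice Adcy3 was above the WT range. Treatment gave −0.20 (standard error 0.13, adjusted p = 0.269), with 13 of 14 treated mice below the PBS median, and RGLS4326 against WT 0.70 (adjusted p = 0.00205). The PBS value was 1.40, 0.68 and 0.65 in the 3 index series, past the adjusted p in the first only (adjusted p = 0.00175, 0.093 and 0.187). Only 30 to 64 reads per WT mouse lay behind these values, and 1380 bp of Adcy3 exons overlap Cenpo, a centromere protein gene on the opposite strand. Cenpo itself read 4.31 ± 0.460 CPM in WT (SD, n = 5) and 5.72 ± 0.524 CPM with PBS (SD, n = 12).

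Adcy9, a broadly expressed, forskolin-insensitive cyclase (chr16:4287529-4420498, minus strand), moved the other way. It read 18.6, 21.5, 21.0, 19.1 and 19.0 CPM in WT, 7.81 to 15.2 CPM (median 10.8) with PBS and 6.66 to 18.3 CPM (median 11.7) with RGLS4326. All 12 PBS and all 14 treated mice were below the lowest WT mouse. The log2 fold change was −0.85 (standard error 0.17, adjusted p = 6.05e-05) for PBS against WT and −0.69 (standard error 0.17, adjusted p = 0.000788) for RGLS4326 against WT. It was 0.16 (standard error 0.13, adjusted p = 0.371) for RGLS4326 against PBS, with 9 of 14 treated mice above the PBS median. Adcy9 kept its fall with PBS under total count scaling (−0.49, adjusted p = 0.00417) and in each index series (−0.80, −0.85 and −0.83), the third of which held 1 WT mouse and missed the adjusted p (0.115).

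**Figure D3:**
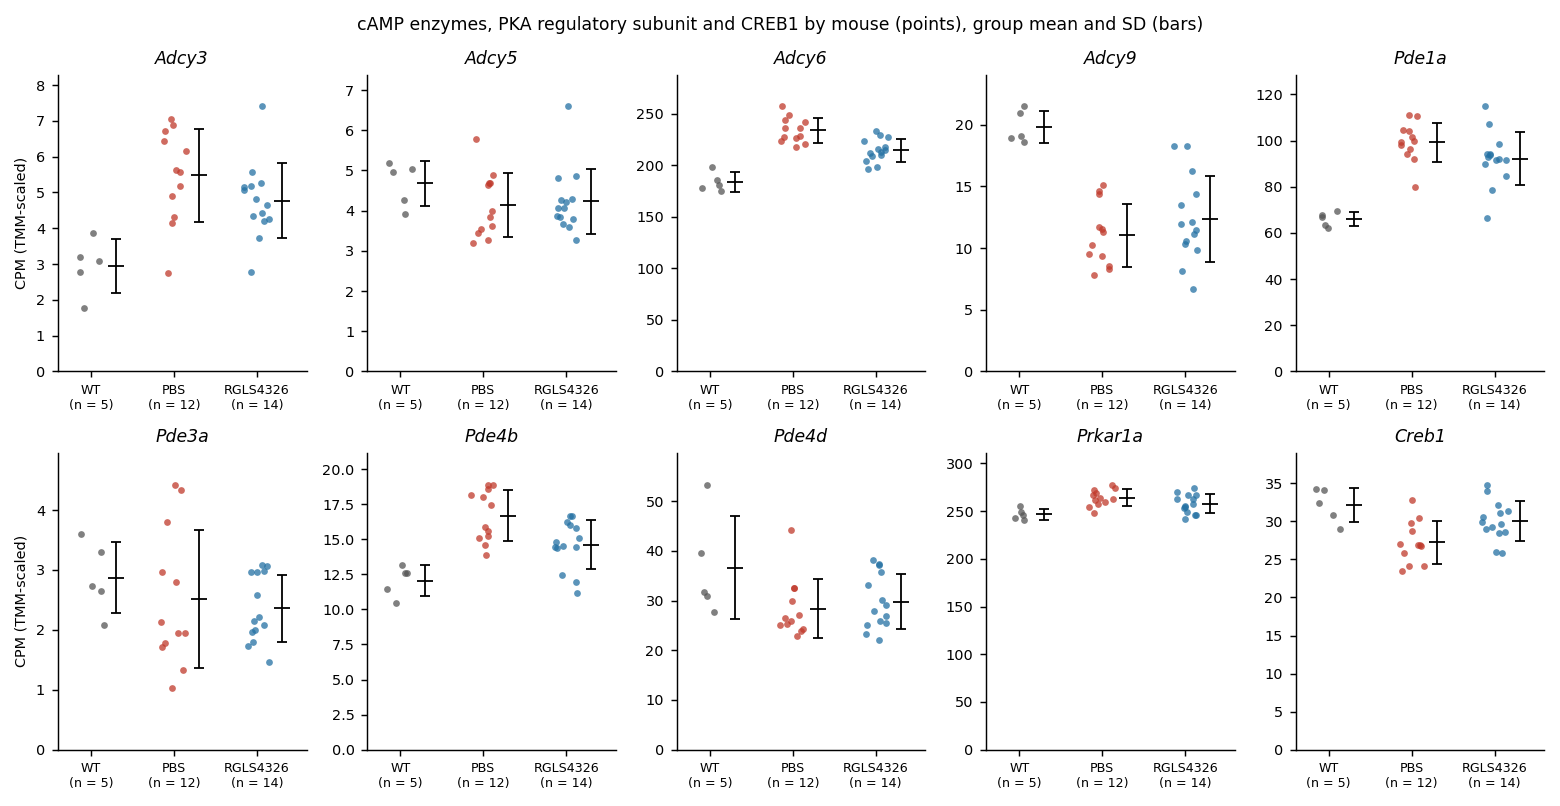
CPM (vertical axes, TMM-scaled, each starting at 0) of the 10 genes in WT (n = 5), PBS (n = 12) and RGLS4326 (n = 14) mice; points are mice and bars the mean and SD. Adcy9 lay between 18.6 and 21.5 CPM in WT and below that range in all 26 Pcy/CD1 mice, and Adcy6 was at least 218 CPM in every PBS mouse against at most 199 CPM in WT.

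Of the 4 phosphodiesterases among the 10 genes, Pde1a rose most. It encodes a calcium- and calmodulin-activated enzyme that hydrolyses cAMP and cGMP, at chr2:79834453-80129458 on the minus strand. The WT mice read 69.5, 67.8, 62.2, 63.2 and 67.0 CPM, the PBS mice 80.0 to 111 CPM (median 99.6) and the treated mice 66.4 to 115 CPM (median 92.6). No PBS mouse overlapped WT, and of the treated mice only mouse 9, the lowest at 66.4 CPM, lay within the WT range. PBS against WT gave 0.59 (standard error 0.081, adjusted p = 2.32e-07), a 1.51-fold rise, with 0.41, 0.72 and 0.65 in the 3 index series. RGLS4326 against PBS gave −0.11 (standard error 0.058, adjusted p = 0.173), and −0.21 under total count scaling (adjusted p = 0.0192), with 12 of 14 treated mice below the PBS median, and RGLS4326 against WT 0.48 (standard error 0.079, adjusted p = 8.15e-06).

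Pde4b, one of the cAMP-specific, rolipram-sensitive enzymes and known for its part in inflammatory cells (chr4:102087543-102607259, plus strand), rose with PBS and was lower with treatment. It read 11.4, 10.5, 12.6, 12.6 and 13.2 CPM in WT, 13.8 to 18.9 CPM (median 16.7) with PBS and 11.2 to 16.7 CPM (median 14.6) with RGLS4326. The PBS mice were all above WT, and 13 of 14 treated mice were below the PBS median. The log2 fold change was 0.47 (standard error 0.090, adjusted p = 3.32e-05) for PBS against WT, −0.19 (standard error 0.064, adjusted p = 0.0448) for RGLS4326 against PBS and 0.28 (standard error 0.088, adjusted p = 0.00688) for RGLS4326 against WT. PBS against WT was 0.65, 0.36 and 0.37 in the 3 index series, past the adjusted p in the first (adjusted p = 0.00161, 0.0787 and 0.166). The treatment value was −0.08, −0.20 and −0.27 in the 3 index series, in which 0 genes of the whole table passed. It was near the threshold, at −0.17 without treated mouse 9 (adjusted p = 0.0742). It also missed the adjusted p when any one of PBS mice 2, 3, 5, 6, 10, 11 and 12, treated mice 6, 8, 10, 13 and 14 or WT mouse 4 was left out, with adjusted p from 0.0502 to 0.0831.

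Pde4d, from the same subfamily (chr13:108449948-109953461, plus strand), went in the opposite direction from Pde4b. The WT mice read 53.3, 31.7, 30.8, 27.6 and 39.5 CPM, the PBS mice 22.8 to 44.2 CPM (median 26.1) and the treated mice 22.0 to 38.1 CPM (median 28.5). All groups overlapped, and WT mouse 1 was well above the other WT mice. PBS against WT gave −0.37 (standard error 0.15, adjusted p = 0.0231), but −0.19 without WT mouse 1 (adjusted p = 0.238), −0.34 without WT mouse 5 (adjusted p = 0.0574), −0.25 under upper quartile scaling (adjusted p = 0.103) and −0.011 under total count scaling. It was 0.13 in the second index series and −0.70 and −0.52 in the others. Treatment gave 0.07 (standard error 0.11, adjusted p = 0.649), and −0.04 under total count scaling, and RGLS4326 against WT −0.30 (standard error 0.14, adjusted p = 0.0661). That last value had an adjusted p of 0.0295 without WT mouse 4, 0.0414 without PBS mouse 7 and between 0.0411 and 0.0493 without treated mouse 6, 9 or 13. It also passed in 3 of the 14 alternatives of the closing section, among them the replicate block given there (−0.48, adjusted p = 0.0270).

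Pde3a, the cGMP-inhibited enzyme of heart, platelets and vessels (chr6:141249269-141507448, plus strand), was the least expressed of the 10. It read 3.30, 2.08, 3.61, 2.72 and 2.65 CPM in WT, 1.03 to 4.43 CPM (median 2.04) with PBS and 1.46 to 3.08 CPM (median 2.18) with RGLS4326. The PBS mice spread on both sides of WT, with a coefficient of variation of 45.5% against 23.9% in treated mice. PBS against WT gave −0.19 (standard error 0.25, adjusted p = 0.496) and 0.17 under total count scaling, and RGLS4326 against PBS −0.09 (standard error 0.19, adjusted p = 0.746). The treatment value was 0.007 without PBS mouse 4 and 0.015 without PBS mouse 6. Counts per mouse were 25 to 106, and an antisense transcript, Gm28523, overlaps 741 bp of its exons.

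Prkar1a encodes the type I alpha regulatory subunit that holds PKA inactive, at chr11:109649405-109669656 on the plus strand. It read 243, 246, 249, 240 and 255 CPM in WT, 248 to 278 CPM (median 263) with PBS and 241 to 275 CPM (median 256) with RGLS4326. The PBS mice overlapped WT, 10 of 12 being above the WT range. The rise with PBS was 1.07-fold (log2 fold change 0.10, standard error 0.035, adjusted p = 0.0133). Its size depended on the scaling, with 0.22 under upper quartile (adjusted p = 6.96e-06) and 0.47 under total count scaling (adjusted p = 3.30e-08), and it did not pass in any single index series (0.08, 0.15 and 0.08, adjusted p = 0.430, 0.143 and 0.571). Treatment gave −0.04 (standard error 0.026, adjusted p = 0.324), and −0.15 under total count scaling (adjusted p = 0.0148). RGLS4326 against WT gave 0.06 (standard error 0.035, adjusted p = 0.107), but 0.16 under upper quartile (adjusted p = 0.000594) and 0.32 under total count scaling (adjusted p = 1.31e-05).

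Since CREB binds cAMP response elements, RefSeq promoters (GRCm38.p6, windows of 300 bases that start 250 before each start site) were searched on both strands for the full element, TGACGTCA, and for its half-site, TGACG, whose letters are part of the full element. Adcy6 and Pde3a had no entry, and the other 8 genes had 20 promoters. Prkar1a alone of these held the full letters, in 2 of its promoters that overlap and share 1 copy, beside 1.79% of all 32851 promoters. The half-site stood in 6 of the 20 promoters (30.0%), from Adcy9, Pde1a, Pde4b and Prkar1a, against 20.81% of all promoters. The Prkar1a letters lie 49 bases before one start site and 38 bases after another, at chr11:109650900-109650907. They are shown in capitals on the plus strand, as the only full element found in the promoters of the 8 genes searched, with the sequence around them at chr11:109650889-109650918.
Prkar1a: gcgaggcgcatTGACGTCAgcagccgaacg
A match of letters is a description of the sequence and not a measured binding site.

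Creb1 (chr1:64532645-64604548, plus strand), which encodes CREB, read 29.0, 34.3, 30.8, 34.1 and 32.4 CPM in WT, 23.5 to 32.9 CPM (median 26.9) with PBS and 25.8 to 34.8 CPM (median 29.8) with RGLS4326. Of the PBS mice 9 of 12 were below the WT range, while 9 of 14 treated mice were within it and 12 of 14 were above the PBS median. PBS against WT gave −0.24 (standard error 0.069, adjusted p = 0.00292), with −0.19, −0.27 and −0.23 in the 3 index series, none past the adjusted p alone (0.300, 0.0787 and 0.161). That fall depended on the scaling, since it was −0.12 under upper quartile scaling (adjusted p = 0.105) and 0.13 under total count scaling (adjusted p = 0.0922). RGLS4326 against PBS gave 0.14 (standard error 0.051, adjusted p = 0.0561), short of the threshold, and 0.03 under total count scaling (adjusted p = 0.687). With DESeq2 its adjusted p was 0.0427, and without PBS mouse 4, PBS mouse 12, treated mouse 2 or treated mouse 5 it was 0.0175, 0.0396, 0.0272 and 0.0370. RGLS4326 against WT gave −0.10 (standard error 0.068, adjusted p = 0.213), and 0.16 under total count scaling (adjusted p = 0.0434).

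The agent is complementary to the miR-17 seed, so the longest annotated 3′ untranslated region of each gene (GENCODE vM21) was searched for GCACTTT, the complement of seed bases 2 to 8. The microRNA is shown first, from RefSeq (chr14:115043684-115043706, plus strand, GRCm38.p6), with its seed in capitals. Creb1 alone of the 10 genes held the letters, 3 times in a region of 7170 bp, all in exon 8 of 8, and 0 of them as an 8-base match with an A after it. They lie at chr1:64599827-64599833, chr1:64600990-64600996 and chr1:64603167-64603173 on the plus strand, and capitals mark the match in the other lines.
mmu-miR-17-5p: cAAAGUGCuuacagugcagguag
Creb1 match at position 2449: tatatatagtgGCACTTTtatctataggg
Creb1 match at position 3612: tgctgtaacttGCACTTTtttttaaggac
Creb1 match at position 5789: aattctttttaGCACTTTtttgagtaagg
Adcy7 match at position 819: tttttctgtgtGCACTTTAtttattttgga
Positions are counted from 1 at the first base after the stop codon. The median region was 1145 bp in tested genes and 2085.5 bp in the 10 genes, and the following shares were not matched for length. Of 13832 tested genes with such a region, 13.98% held GCACTTT, beside 1 of the 10 genes and 11 of 48 other genes of the pathway. Among the latter, Adcy7 is shown because it is the other cyclase named in the comparisons that held an 8-base match, at chr8:88328637-88328644 in its last exon. Creb1 stood at 0.14 and Adcy7 at −0.02 (standard error 0.14) for RGLS4326 against PBS, and neither passed the adjusted p.

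Close relatives and partner subunits were set against each other within each mouse, as differences of log2(CPM + 1), with 6 two-sided permutation tests of mice and Benjamini-Hochberg adjustment over them. Adcy5 minus Adcy6 was −5.03 ± 0.198 in WT (SD, n = 5), −5.53 ± 0.248 with PBS (SD, n = 12) and −5.38 ± 0.231 with RGLS4326 (SD, n = 14). The difference of −0.50 between PBS and WT had an exact permutation p of 0.00259 (adjusted p = 0.00517). Pde4b minus Pde4d went from −1.49 ± 0.403 in WT to −0.71 ± 0.328 with PBS, a difference of 0.78 (exact permutation p = 0.00194, adjusted p = 0.00517), and read −0.97 ± 0.361 with RGLS4326. Prkar1a minus Prkaca, the gene of the alpha catalytic subunit, went from 1.42 ± 0.0634 to 1.69 ± 0.0773, a difference of 0.28 (exact permutation p = 0.000323, adjusted p = 0.00194). In this last ratio every PBS mouse was above every WT mouse. Treatment against PBS gave 0.15, −0.25 and −0.06 in the order of these ratios, with an adjusted permutation p of 0.111 for each. A ratio within a mouse does not depend on the scaling beyond the pseudocount of 1.

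**Figure D4:**
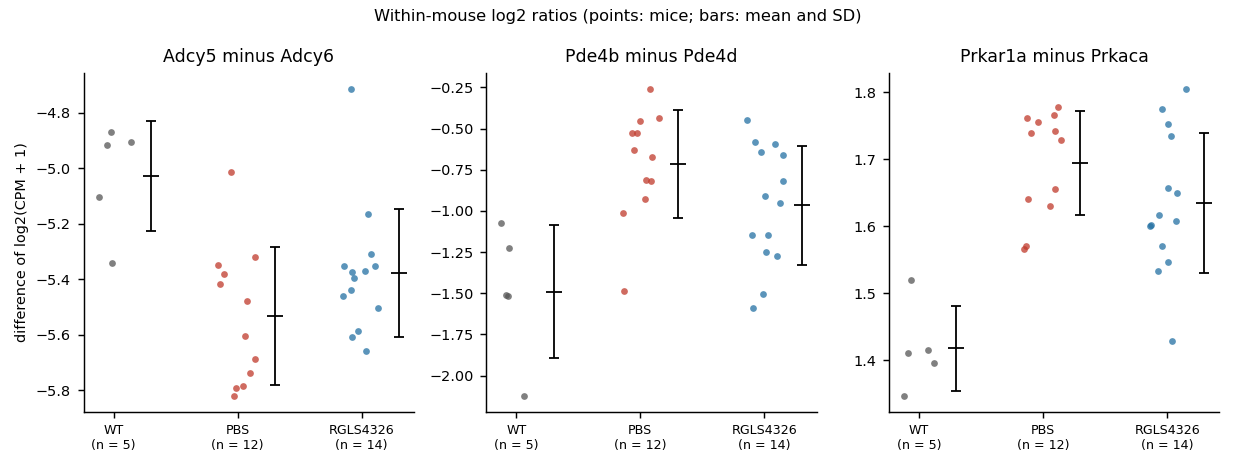
Differences of log2(CPM + 1) between gene pairs within each mouse (vertical axes, which do not start at 0) in WT (n = 5), PBS (n = 12) and RGLS4326 (n = 14) mice; points are mice and bars the mean and SD. Prkar1a minus Prkaca ran from 1.35 to 1.52 in WT and from 1.57 to 1.78 with PBS, without overlap.

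Adcy6 was the main cyclase by level per length in all 3 groups. It took 75.5 ± 2.98% of the summed RPKM of 10 cyclases in WT (SD, n = 5), 76.1 ± 2.92% with PBS (SD, n = 12) and 75.1 ± 2.22% with RGLS4326 (SD, n = 14). Adcy9 took 10.6 ± 0.495%, 4.70 ± 1.13% and 5.66 ± 1.68% in the same order. Adcy7, a cyclase of immune cells that is not among the 10 genes, took 3.09 ± 0.528%, 7.96 ± 1.53% and 8.44 ± 2.20%. Marker sums of immune cells stood beside it, as medians in the same order. They were 153, 365 and 349 CPM for macrophages, 1.93, 10.7 and 8.41 CPM for T cells and 4.90, 11.5 and 13.3 CPM for B cells. The part of these sums in the Adcy7 share was not tested. The Adcy9 share did not overlap between WT and PBS mice, nor did that of Adcy7. Pde1a took 11.8 ± 0.814% of the summed RPKM of 16 phosphodiesterases in WT, 17.6 ± 1.21% with PBS and 16.3 ± 1.81% with RGLS4326, again without overlap between WT and PBS. These shares are descriptions without a test.

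Around the 10 genes, 50 other genes of the pathway were followed, of which 48 were tested. With PBS against WT 17 rose and 19 fell, beside 37.7 and 36.6% of all genes, and 19 passed both thresholds, 12 upward and 7 downward (background 42.4% of all genes). Their median log2 fold change was −0.08 beside 0.01 for all genes. Under total count scaling, which moved the median of all genes upward, the split was 30 upward and 6 downward, beside 9513 and 2373 of all genes. Single genes of the 48 also turned direction under it and are given by these counts only. Of the following counts by role, each is over few genes, was not tested, and stands beside the same shares of all genes. Of the phosphodiesterases 7 of 12 rose and 2 fell, against 11 and 1 under total count scaling. Of the anchoring proteins, which tether PKA to sites in the cell, 6 of 10 fell and 1 rose, against 2 and 3 under total count scaling. Of PKA subunits and inhibitors 5 of 8 fell and 2 rose, against 2 and 4 under total count scaling.

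Named by rule as the largest rises with PBS were Adcy8, Akap12 and Adcy7. Adcy8 met the minimum mean of 1 CPM for naming only through the groups where it was high (means of 0.0715 CPM in WT, 2.90 CPM with PBS and 1.17 CPM with RGLS4326), so its place among them comes in part from that selection. Adcy8, a calcium-stimulated cyclase best known from brain, had 6 reads in all 5 WT mice together, 10 to 175 reads per PBS mouse and 1 to 80 reads per treated mouse. Pooled over mice, PBS was 41.7-fold above WT (95% exact interval 19.1 to 114, counting error only). Akap12, an anchoring protein of mesenchymal and endothelial cells, rose from 14.1 ± 1.99 to 51.0 ± 15.8 CPM (log2 fold change 1.86, adjusted p = 4.29e-08), and Adcy7 from 7.45 ± 1.19 to 24.5 ± 5.62 CPM (1.72, adjusted p = 1.06e-07). The largest falls were those of the regulatory subunit gene Prkar2b (−0.91, adjusted p = 0.00244), the inhibitory G protein gene Gnai1 (−0.73, adjusted p = 7.88e-09) and the PKA inhibitor gene Pkia (−0.72, adjusted p = 1.75e-08). Gnai1 and Pkia did not overlap between PBS and WT mice, while Prkar2b did.

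With RGLS4326 against PBS, 4 of these 48 genes rose and 5 fell, 9 in all beside 15.8% of all genes (9.15% higher and 6.66% lower), and 1, Adcy8, passed both thresholds (background 2.15%). The log2 fold change of Adcy8 was −1.28, with a standard error of 0.43 and an adjusted p of 0.0423. PBS mice 2, 3, 5, 9 and 10 read 3.46 to 8.22 CPM and the other PBS mice 0.592 to 2.55 CPM. The call was lost without any one of these 5 mice (adjusted p = 0.0696 to 0.101) or of treated mice 3, 6, 7, 8, 9, 10 and 13 (0.0547 to 0.0700), with no filter on low counts (0.0522) and with only the groups compared (0.0612). Akap12 fell by 0.42 (adjusted p = 0.0468) to 38.0 ± 9.65 CPM, and Pde8b, a high-affinity cAMP phosphodiesterase, fell by 0.39 (adjusted p = 0.00563) from 23.7 ± 2.66 to 18.1 ± 2.90 CPM. Pde8a rose by 0.20 (adjusted p = 0.0468), Gnai1 by 0.19 (adjusted p = 0.0363) and Pkia by 0.18 (adjusted p = 0.0482). The count of 9 also moved with single mice, since 2 to 12 of the 48 genes passed with one mouse left out. The count was 2 to 5 without PBS mouse 2, 3, 5, 9, 10 or 11, treated mouse 3, 6, 7, 8, 9, 10 or 13 or WT mouse 4, and over the other alternatives it was 0 to 17. The other 3, named after their values were seen because they complete the 9, were Gnas (0.10), Pde7b (−0.23) and Crtc1 (−0.12). Under total count scaling 0 of the 48 rose and 17 fell, beside 30.8% of all genes past the adjusted p. Against WT, 11 were higher and 18 lower in treated mice, beside 64.9% of all genes (32.5% higher and 32.4% lower). With total count scaling that split was 25 higher and 6 lower, beside 8448 and 2079 of all genes. Adcy8, with 6 WT reads and named through the selection given above, was 17.6-fold above WT by pooled reads (95% exact interval 8.002 to 48.2, counting error only). The others named were Adcy7 (1.69) and Akap12 (1.43) upward and Prkar2b (−0.63), Akap11 (−0.55) and Gnai1 (−0.54) downward.

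**Figure D5:**
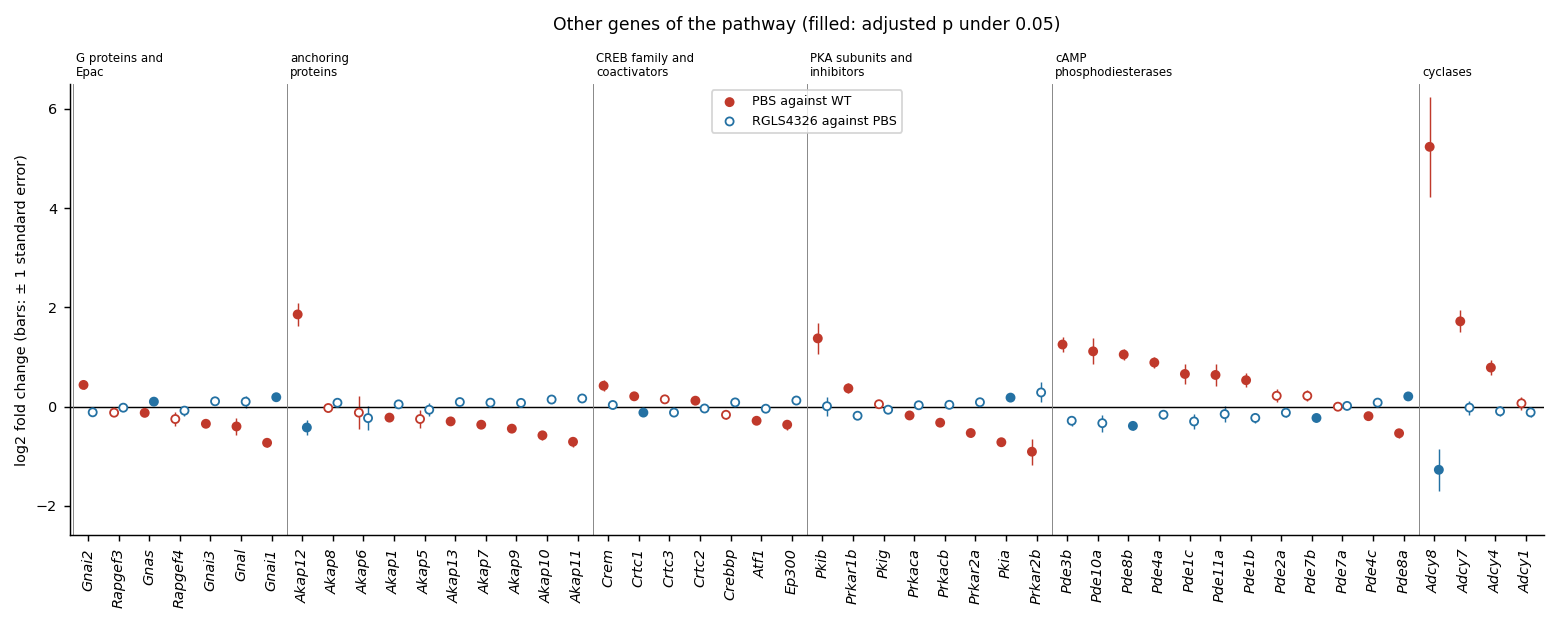
Log2 fold changes (vertical axis) of 48 other genes of the cAMP pathway, grouped by role, for PBS against WT and RGLS4326 against PBS; bars are ± 1 standard error and filled points have an adjusted p under 0.05. Adcy8, at 5.23 with PBS and −1.28 with treatment, rests on 6 WT reads in all.

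Over the 26 Pcy/CD1 mice, the spread of several of the 10 genes moved with marker sums or with the share of reads that fell in no gene. Each gene was set against 5 such measures after removing the group means, 50 relations in all, with permutation of mice within groups and Benjamini-Hochberg adjustment over the 50. How many of all tested genes move with these measures was not computed, so the relations are not given as particular to the 10 genes. Adcy6 moved with the principal cell sum, with Pearson's r = 0.72 (permutation p = 1e-05, the smallest the permutations can give, adjusted p = 0.00025) and Spearman's rho = 0.68 (permutation p = 0.00026). Without the 2 mice farthest from the median of the principal cell sum r was 0.66, and within the index series it was 0.56, 0.52 and 0.95 (n = 8, 9 and 9). The principal cell sum was itself lower in treated than in PBS mice, with medians of 1166 and 1724 CPM. Its part in the lower Adcy6 was not tested.

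Adcy3 moved with the fibroblast sum (r = 0.72, permutation p = 4e-05, adjusted p = 0.0005, rho = 0.86, permutation p = 1e-05). Here r was 0.86 without the 2 farthest mice, and 0.97, 0.60 and 0.84 in the index series. Adcy9 and Pde4d moved with the proximal tubule sum. For Adcy9 r was 0.68 (permutation p = 0.00015, adjusted p = 0.00107), rho 0.74 (permutation p = 4e-05), r without the 2 farthest mice 0.60 and r in the series 0.80, 0.70 and 0.57. For Pde4d the same values were r = 0.73 (permutation p = 1e-05, adjusted p = 0.00025), rho = 0.71 (permutation p = 5e-05), then 0.70, and 0.62, 0.81 and 0.72. All 5 proximal tubule markers had lower medians with PBS than in WT, and all 5 fibroblast markers higher ones. These genes did not each follow a single sum. Adcy3 also had r = 0.69 with the macrophage and −0.62 with the proximal tubule sum (adjusted permutation p = 0.000583 and 0.00606). Adcy9 had −0.68 with the macrophage sum (adjusted permutation p = 0.00194), and −0.51 and −0.50 with the principal cell and fibroblast sums (0.0279 and 0.0414). Pde4d had −0.67 and −0.66 with the macrophage and fibroblast sums (0.000583 and 0.0005). The part of these sums in the differences of Adcy3, Adcy9 and Pde4d from WT was not tested.

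Pde4b moved with the share of reads in no gene (r = 0.62, permutation p = 0.00125, adjusted p = 0.00625, rho = 0.60, permutation p = 0.00203), with r = 0.48 without the 2 farthest mice and 0.46, 0.73 and 0.71 in the index series. Adcy6 (r = 0.53, adjusted permutation p = 0.0267) and Creb1 (r = 0.51, adjusted permutation p = 0.0322) moved with that share too. For Adcy6 r was 0.56 without the 2 farthest mice, and 0.59, 0.52 and 0.62 in the index series. The share ran from 10.4 to 12.5% with PBS and from 10.5 to 12.5% with RGLS4326. Its part in the treatment values of Pde4b, Adcy6 and Creb1 was not tested. Relations of Adcy5 (r = −0.52) and Pde1a (r = 0.49) with the principal cell sum rested on PBS mouse 4 and treated mouse 9, since r without them was −0.0076 and 0.15. Treated mouse 9 lay within the WT range for 8 of the 10 genes, the exceptions being Adcy5 and Adcy9, and had a principal cell sum of 616 CPM, a fibroblast sum of 163 CPM and a proximal tubule sum of 13587 CPM.

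As a description of likeness, the 3 genes closest to each of the 10 were sought among 13784 genes by Pearson's r of group-centred log2(CPM + 1) over the 26 Pcy/CD1 mice, which are of 1 strain and whose index series and depths are spread over both groups. Adcy9 had the closest partners, Dpp8, Gramd1b and Trappc10, each at r = 0.95. Adcy3 was closest to Arhgap23 (0.91), Frmd6 (0.89) and Inf2 (0.89), and Pde3a to Kcnd3 (0.89), Asap2 (0.82) and Ptprb (0.79). Pde4d was closest to Dcun1d3 (0.86), Creb1 to Ints8 (0.85), Adcy6 to Abcc5 (0.84), Pde1a to Serpinb8 (0.83) and Adcy5 to Ttc28 (0.80). Over all 26 mice, Pde4b, closest to Cdk14 (0.78), and Prkar1a, closest to Enox1 (0.72), had the least similar partners. The place of Pde4b depended on few mice. Without the 2 mice farthest from the median of the gene, Pde4b had r = 0.66 with Cdk14 and 0.74 with Ahr. Adcy5 then had 0.70 with Ttc28 and Prkar1a 0.65 with Enox1.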

How the data were processed

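Poly(A) RNA of 31 kidneys was prepared by the authors with a stranded mRNA kit and sequenced as paired reads. The authors used TrimGalore for trimming, STAR for mapping to GRCm38 and HTSeq 0.6.1 for counting, which took only reads with 1 place in the genome. They deposited raw, unnormalized counts of 23509 genes for each mouse. The strand setting and gene annotation of the counting are not given in the sources used here. Reads in no gene were left out of library sizes.

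From the counts, filterByExpr (minimum count 10) kept 15185 genes, TMM set the scaling, and all 31 mice entered 1 quasi-likelihood fit of edgeR 4.0.16 (R 4.3.3), with a term for each group and no covariate. Standard errors are approximate, taken from the fold change and its F statistic. RPKM used exon lengths of GENCODE vM21. Other steps ran in Python 3.11.15 (scipy 1.17.1, numpy 2.4.6, matplotlib 3.10.9, pandas 2.3.3), with 100000 resamples or exact enumeration for ratios and 99999 permutations for relations. The procedure was tested on simulated data. Alternatives, DESeq2 1.42.0 among them, are given in the closing section.

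The 10 genes, the pathway and marker lists and the tests were chosen with earlier results of these data known. Total count scaling, scaling without the 20 most abundant genes, the relations with marker sums, the shares of summed RPKM, the pooled Adcy8 ratio and the sequence searches were added after values were seen. Other genes of the pathway were named as the 3 largest rises and 3 largest falls per comparison among genes past the adjusted p with a mean of at least 1 CPM. Replicates were taken as separate mice, and groups and numbers come from the labels. Adgre1 and Trac of the marker lists were not used here, since no row bears these symbols.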

Additional observations from a re-analysis of the deposited data

How the results depend on the processing

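Low read counts limit the precision of Pde3a, Adcy3 and Adcy5 among the 10 genes and of Adcy8 among the others, and the 5 WT mice limit every comparison with WT. Each of the 10 genes was refitted under 14 alternatives and without each of the 31 mice in turn. Directions of genes that passed the adjusted p reversed only for Pde4d and Creb1 in PBS against WT. Adcy6 in RGLS4326 against PBS passed the adjusted p in 10 of 14 alternatives and in 31 of 31 fits without one mouse, Pde4b in 8 of 14 and 17 of 31. In 3 of the 14, the single index series, 0 genes of the whole table passed for that comparison, so these 3 say nothing of either gene. Except where values below or in the report show otherwise, causes of the changes were not tested.

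With total count scaling, which leaves out the composition correction, reversed log2 fold changes were 0.19 for Adcy5, 0.17 for Pde3a and 0.13 for Creb1 in PBS against WT, −0.088 for Adcy5 and −0.041 for Pde4d in RGLS4326 against PBS, and 0.10 for Adcy5 and 0.16 for Creb1 in RGLS4326 against WT. Only the last of these, Creb1 in RGLS4326 against WT, passed the adjusted p (0.0434). The same scaling put 2 of the 48 other pathway genes past both thresholds with treatment, beside 4.53% of all genes (2.15% with TMM). Over all genes it called 6285 higher and 1071 lower for PBS against WT, beside 3741 and 2701 with TMM. Within index series 1, reversed values were 0.032 (Adcy5) and 0.14 (Pde3a) for PBS against WT, and −0.31 (Adcy5), −0.037 (Adcy9), 0.026 (Pde1a), −0.025 (Pde4d) and 0.021 (Prkar1a) for RGLS4326 against PBS. Within series 2 they were all for Pde4d, at 0.13 (PBS against WT), −0.0079 (RGLS4326 against PBS) and 0.12 (RGLS4326 against WT), and within series 3 Pde3a was 0.039 (RGLS4326 against PBS). Without one mouse, the treatment value ran from −0.030 to 0.084 for Adcy5 and from −0.17 to 0.015 for Pde3a.

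By the adjusted p alone, 8, 2 and 5 of the 10 genes and 36, 9 and 29 of the other pathway genes passed in PBS against WT, RGLS4326 against PBS and RGLS4326 against WT. Past both thresholds, 1 of the 10 genes passed in series 3 for PBS against WT, and 4, 0 and 0 in series 1, 2 and 3 for RGLS4326 against WT, where other pathway genes numbered 3 in series 2 and 5 in series 3. Of all genes, 32.6, 2.45 and 15.99% passed there in the 3 series, and 31.9% in series 3 for PBS against WT. For RGLS4326 against PBS the 1 other pathway gene became 0 with no filter on low counts (1.35% of all genes), with only the 2 groups compared (1.43%) and within each series (0%). Without one mouse it was 0 to 1, being 0 without PBS mouse 2, 3, 5, 9 or 10 or treated mouse 3, 6, 7, 8, 9, 10 or 13. For the within-mouse ratios, a pseudocount of 5 gave 0.14 for Adcy5 minus Adcy6 with treatment (unadjusted permutation p = 0.0266). Without one mouse, the treatment ratios ran from 0.10 to 0.20 (Adcy5 minus Adcy6), from −0.32 to −0.20 (Pde4b minus Pde4d) and from −0.073 to −0.044 (Prkar1a minus Prkaca), and passed an unadjusted 0.05 without PBS mouse 4 for the first, without PBS mouse 7 or treated mouse 2 for the second and without treated mouse 3 for the third.

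Same-numbered mice are different animals, and the correlation of their deviations went both ways, with r from −0.017 to 0.23 over 5 PBS and WT pairs (2 over 0.1), from −0.47 to 0.51 over 12 RGLS4326 and PBS pairs (4 over 0.1) and from −0.13 to 0.11 over 5 RGLS4326 and WT pairs (1 over 0.1), so the numbers were not taken as pairs. With the replicate block, which keeps only shared numbers, 3, 0 and 3 of the 10 genes and 17, 0 and 15 other pathway genes passed both thresholds in the order above. Of all genes 41.1, 0.020 and 35.0% did so. For RGLS4326 against PBS 11 genes in all passed the adjusted p (Adcy6 had an adjusted p of 0.120 and Pde4b of 0.140), and Pde3a reversed to 0.038 there. Prkar1a in PBS against WT no longer passed under the block (0.088, adjusted p = 0.259), while Pde4d passed in RGLS4326 against WT (−0.48, adjusted p = 0.0270). Under the block the ratios for PBS against WT were −0.35, 0.89 and 0.22, each with p = 0.0625 (exact sign-flip permutation test), the smallest that 5 pairs allow.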
